A study of Caenorhabditis elegans with 2 samples.

Results

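The cuticle collagen genes of *Caenorhabditis elegans* were examined for binding of the transcription factor UNC-86, tagged with GFP, in late embryos. Members were all protein-coding genes whose symbol begins with col- in the Ensembl WBcel235 annotation, 156 of 19973 protein-coding genes. This rule reads no measured value, but it was chosen with earlier results of these data known. RefSeq names the product of 139 of them as a cuticle collagen or as a protein with a cuticle collagen N-terminal domain. Another 9 are named by the Col_cuticle_N domain, and 8 as collagens without mention of the cuticle.

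Chromatin from whole hermaphrodites was precipitated with an antibody to GFP and sequenced (ChIP-seq), in 2 biological replicates of 1 group. The animals were of strain OP476, genotype unc-119(tm4063) III; wgIs476, which stably expresses UNC-86 with a C-terminal GFP-FLAG tag, and were taken as late embryos 3.5 hours after synchronization by egg bleaching. The values are peaks on a transgenic fusion protein in an unc-119 mutant background, no strain without the tag was among the samples, and whole-animal chromatin does not tell in which cells a peak arose. With 1 group there is no comparison between conditions, and no expression was measured.

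Cuticle collagens are the main structural proteins of the nematode exoskeleton. They are made by the epidermis (hypodermis), trimmed and cross-linked outside the cell, and their genes are switched on in waves around each moult, the first wave coming late in embryogenesis when the larval cuticle is laid down. UNC-86 is a POU homeodomain factor of class IV known for specifying neurons such as the touch receptor neurons.

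Peak lists of 4 kinds were deposited. One list per replicate held 17498 peaks in replicate 1 and 18470 in replicate 2, and a pooled list from both replicates together held 12784. The fourth, the IDR list, held the 816 peaks past the authors' threshold on the irreproducible discovery rate, a measure of how well ranks agree between replicates. The authors label the pooled list as peaks and background, meant as input for IDR. Its entries are called peaks here, but background regions are among them, and an entry outside the IDR list is not by itself a binding site. Each peak has a summit, its highest point, and a signal, the authors' own value relative to a control, used here only to describe and rank peaks within one list. Signal in the pooled list ran from 25.6 to 838 with a median of 31.8, and the IDR list began at 64.7. A gene was counted as having a peak when a summit lay within 2 kb of any of its annotated transcript starts. Summits within 300 bp of the midpoint of a tRNA, snRNA, snoRNA, miRNA or piRNA gene, called small RNA genes below, were kept apart from the rest. The number of reads is not given, so the depth is unknown.

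Of the 156 collagen genes, 5 had an IDR summit in range, and 4 of these summits lay on or beside a small RNA gene. The sequences under 3 of those 4 summits are shown first, because they let the tRNA gene be seen within the peak. Each runs 5′ to 3′ along the plus strand of ce11 (WBcel235, as in the RefSeq reference), covers up to 100 bp to each side of the pooled summit, and has the tRNA gene in capitals. At the tRNA genes on the minus strand the capitals are therefore the reverse complement of the RNA.
col-181 (chrX:12106103-12106299, plus strand, tRNA gene on the minus strand): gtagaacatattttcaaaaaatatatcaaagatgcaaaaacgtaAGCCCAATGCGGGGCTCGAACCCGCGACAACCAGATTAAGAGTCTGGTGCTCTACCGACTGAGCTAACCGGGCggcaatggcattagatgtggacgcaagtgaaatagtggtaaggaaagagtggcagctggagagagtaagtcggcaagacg
col-85 (chrII:12494639-12494839, plus strand, tRNA gene on the plus strand): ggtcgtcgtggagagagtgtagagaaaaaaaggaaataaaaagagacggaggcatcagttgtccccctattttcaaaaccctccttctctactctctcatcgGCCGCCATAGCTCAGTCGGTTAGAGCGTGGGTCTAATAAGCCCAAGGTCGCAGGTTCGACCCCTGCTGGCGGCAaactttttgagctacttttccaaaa
col-185 (chrX:13511905-13512105, plus strand, tRNA gene on the minus strand): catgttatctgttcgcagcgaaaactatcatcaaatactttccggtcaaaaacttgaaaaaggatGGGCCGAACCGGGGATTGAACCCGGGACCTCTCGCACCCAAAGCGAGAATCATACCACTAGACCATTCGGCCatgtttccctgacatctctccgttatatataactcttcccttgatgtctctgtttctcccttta

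The window at *col-181* holds the tRNA-Lys gene W03G11.t1. The window at *col-85* holds the tRNA-Ile gene T21B4.t1, and that at *col-185* the tRNA-Pro gene H06A10.t1. tRNAs carry amino acids to the ribosome. The summit at *col-94* lay at a small nuclear RNA (snRNA) gene, a class that takes part in splicing.

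The next sequences are those of the strongest pooled summits at collagen genes away from small RNA genes, at *col-71*, *col-38* and *col-98*. The 21 bases centred on the summit are in capitals, and strand and build are as above.
col-71 (chrII:3502744-3502944, plus strand): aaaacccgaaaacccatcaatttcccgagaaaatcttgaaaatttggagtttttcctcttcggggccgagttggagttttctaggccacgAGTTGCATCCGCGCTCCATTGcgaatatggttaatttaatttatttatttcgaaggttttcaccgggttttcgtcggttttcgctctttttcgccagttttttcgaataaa
col-38 (chrII:8569465-8569665, plus strand): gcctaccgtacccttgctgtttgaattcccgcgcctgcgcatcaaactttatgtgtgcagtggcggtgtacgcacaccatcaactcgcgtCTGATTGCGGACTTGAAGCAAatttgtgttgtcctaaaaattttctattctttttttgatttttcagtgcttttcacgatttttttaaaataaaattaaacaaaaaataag
col-98 (chrIII:13017637-13017837, plus strand): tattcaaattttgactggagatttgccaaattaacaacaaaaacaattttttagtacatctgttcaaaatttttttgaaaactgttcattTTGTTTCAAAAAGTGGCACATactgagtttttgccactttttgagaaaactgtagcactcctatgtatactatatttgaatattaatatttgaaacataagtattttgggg

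None of the 8 patterns searched matched in any of these 3 windows. At *col-71* and *col-38*, none of the 172 overlapping stretches of 30 bases in the window occurred elsewhere in the genome, and at *col-98* 3 did.

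The 5 genes with an IDR summit were 3.21% of the members (95% Wilson interval 1.38 to 7.28), beside 5.65% of all protein-coding genes, a value inside the interval. Away from small RNA genes a single collagen gene remained, *col-71*, 0.641% of the members (0.113 to 3.54) beside 4.68% of all protein-coding genes, and the interval ended below the latter value. At small RNA genes the order was the other way about, with 4 members, 2.56% (1.00 to 6.41), beside 195 protein-coding genes, 0.976%. In the longer lists the shares at small RNA genes had intervals that included the value of all genes. They were 5.13% (2.62 to 9.79) beside 2.84% in the pooled list, 4.49% (2.19 to 8.97) beside 3.25% in replicate 1 and 3.85% (1.77 to 8.14) beside 3.42% in replicate 2. The intervals cover counting error over genes only, and genes are not independent replicates, since neighbours can share a peak.

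Away from small RNA genes the share of collagen genes was also the lower one in the longer lists. The pooled list gave 46 members a summit, 29.5% (22.9 to 37.1) beside 40.7% of all protein-coding genes. Away from small RNA genes it gave 40 members, 25.6% (19.4 to 33.0) beside 38.9%. In replicate 1, 67 members had such a summit, 42.9% (35.4 to 50.8) beside 48.8%, and the interval included the value of all genes. In replicate 2, 59 members had one, 37.8% (30.6 to 45.6) beside 50.5%. Most pooled peaks had a low −log10 q value, the authors' measure after correction over peaks, with a median of 0.0757. With a −log10 q of at least 1, which 1285 pooled peaks reached, *col-71* was again the single member away from small RNA genes, 0.641% beside 7.10% of all protein-coding genes.

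**Figure D1:**
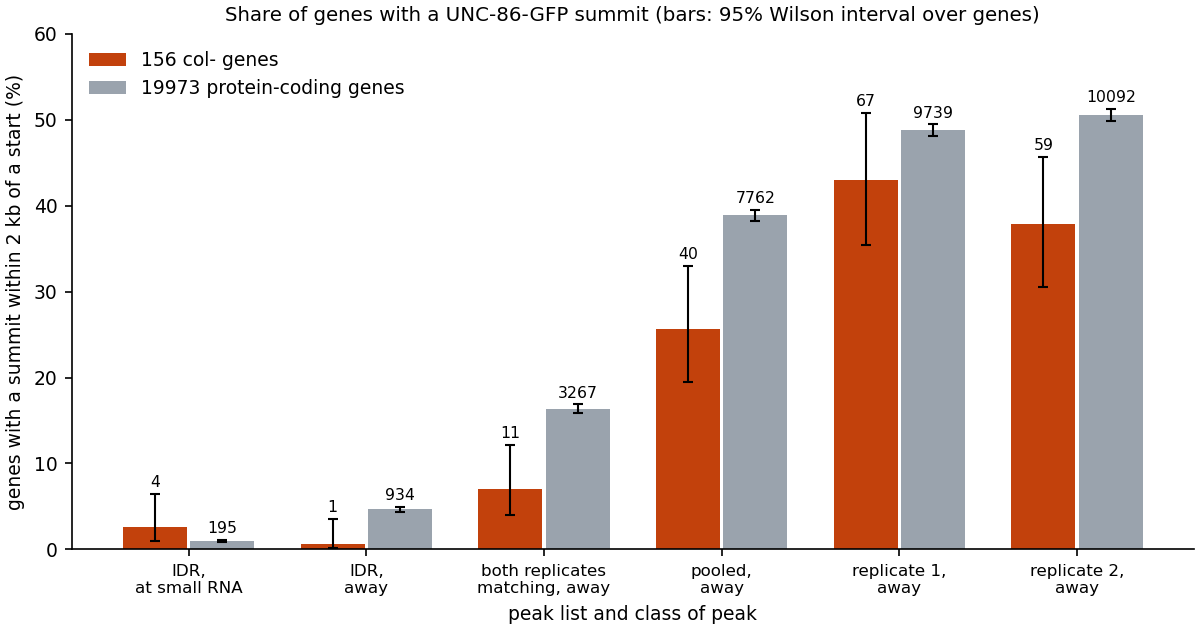
Percentage of genes (y axis) with a summit within 2 kb of a transcript start, by list and class of peak (x axis), for the 156 collagen genes (orange) and all 19973 protein-coding genes (grey); the number over each bar is the count of genes and the line its 95% Wilson interval. The collagen bar is the lower one in every class away from small RNA genes, from 1 gene in the IDR list to 67 in replicate 1, and the higher one at small RNA genes, where it stands for 4 genes.

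Replicate 1 alone had a summit of either class at 31 members, 19.9% beside 15.5% of all genes, and replicate 2 alone at 24, 15.4% beside 17.4%. A further 40 members (25.6%) had one in both, beside 35.2% of all genes. At 25 of those 40 the replicates' summits lay more than 100 bp apart. Over all genes, 7026 had a summit in both replicates, and 3537 of these had summits within 100 bp of each other. Summits within 100 bp of each other, called matching here, were found at 15 members, 9.62% (5.91 to 15.3) beside 17.7% of all protein-coding genes. Away from small RNA genes matching summits were found at 11 members, 7.05% (3.98 to 12.2) beside 16.4%. No list had a summit in range of 61 members (39.1%), where the share over all genes was 31.4%.

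The 4 strongest collagen summits were those at small RNA genes, and each was found in both replicates at nearly the same place. At *col-181* (chromosome X 12104930 to 12106102, plus strand), a member with a cuticle collagen N-terminal domain, signal was 136 in replicate 1 and 112 in replicate 2. The pooled signal was 245, rank 31 of the IDR list, with the summit at X 12106199, 1053 bp downstream of the start and beyond the end of the gene, between genes. The summit lay inside the tRNA-Lys gene (X 12106147 to 12106219), 20 bp from its 5′ end.

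At *col-94* (III 10986808 to 10987873, minus strand), signal was 105 in replicate 1, 132 in replicate 2 and 232 in the pooled list, rank 39. The summit was 1824 bp upstream of the start, within an intron of another gene. A further IDR summit, with signal 97.8 and rank 350, lay 2024 bp upstream of *col-94*, just outside the range, and also within 300 bp of an snRNA gene's midpoint. The same pair of summits lay 4088 and 4288 bp upstream of *col-93*.

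At *col-85* (II 12493703 to 12495095, minus strand), signal was 88.0 in replicate 1, 75.03 in replicate 2 and 160 in the pooled list, rank 125. The summit at II 12494739 fell in an intron of *col-85* itself, 356 bp downstream of the start and 2 bp before the 5′ end of a tRNA-Ile gene (II 12494741 to 12494814) that lies in that intron on the opposite strand. At *col-185* (X 13510035 to 13511097, minus strand), signal was 62.2 in replicate 1, 57.4 in replicate 2 and 123 in the pooled list, rank 219. Its summit at X 13512005 was 908 bp upstream of the start, between genes, and 36 bp inside a tRNA-Pro gene (X 13511970 to 13512041).

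At the 3 tRNA genes the summits lay within 50 bp of the gene's 5′ end in all 3 lists. From that end, the replicate 1 summits were at 19, −30 and 34 bp and the replicate 2 summits at 46, −10 and 36 bp, in the order *col-181*, *col-85*, *col-185*. From the collagen starts, the pooled summits were at 1053, 356 and −908 bp. At all 4 genes, *col-94* included, the nearest protein-coding start was that of the collagen gene itself.

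**Figure D2:**
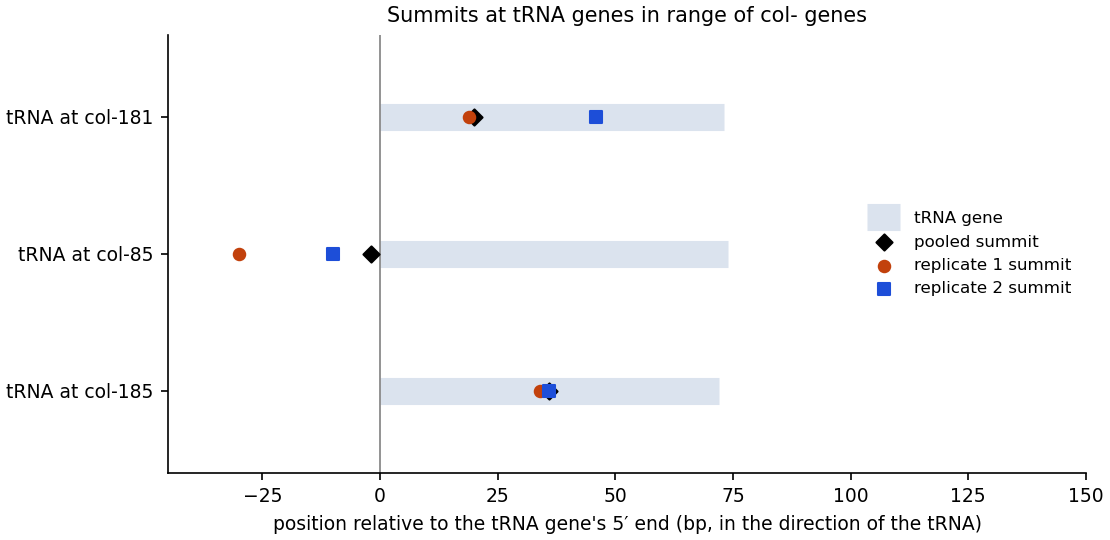
Position of the pooled (diamond), replicate 1 (circle) and replicate 2 (square) summits, in bp from the 5′ end of the tRNA gene (x axis), for the 3 tRNA genes with an IDR summit in range of collagen genes (y axis); pale bars show the length of each tRNA gene. At the tRNA gene of *col-185* the summits lie 34 to 36 bp from the 5′ end, and at that of *col-85* they lie before it.

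These 3 tRNA genes are repeated in the genome. The tRNA-Lys gene has 25 identical annotated copies counting itself, the tRNA-Pro gene 24 and the tRNA-Ile gene 19. Of the 172 stretches of 30 bases in the full 201 bp around each summit, 34.9% occurred elsewhere in the genome at *col-181*, 32.6% at *col-85* and 30.8% at *col-185*. The *col-181* sequence printed above is shorter than that window, at 197 bases. The sources used here do not say how reads matching several places were placed, and the part of repeated sequence in these peaks was not tested. The letters GTTCGA are one form of the core of the B box, the internal promoter element of tRNA genes. They occurred at position 53 of the tRNA-Lys gene and at position 54 of the tRNA-Ile gene, counted from the gene's 5′ end. The tRNA-Pro gene has GTTCAA but not these exact letters. Other forms of the B box were not searched for, so this gene cannot be said to lack one.

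Weaker pooled summits at small RNA genes were found at 4 further members. At *col-54* a summit of signal 40.8, rank 2593, lay in an intron of the gene itself, 585 bp downstream of the start, beside the tRNA gene F33D11.t2. Those at *col-138* (signal 33.3), *col-137* (28.2) and *col-38* (27.1) were beside piRNA genes, at 800 and 1503 bp upstream and 1224 bp downstream of the start. A second summit beside the tRNA-Pro gene of *col-185* had signal 31.0.

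The single collagen gene with an IDR summit away from small RNA genes was *col-71* (II 3500077 to 3502570, minus strand), which encodes a cuticle collagen. Signal at its upstream summit was 33.3 in replicate 1, where it ranked 948, and 44.7 in replicate 2, where it ranked 431. It was thus among the 816 strongest peaks of replicate 2 and outside those of replicate 1. The replicate summits were 5 bp apart, at 278 and 273 bp upstream of the start.

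In the pooled list the peak spanned II 3502624 to 3503063, with the summit at 3502844, signal 78.6 and rank 541. It lay between genes, in the stretch shared with the divergently transcribed gene Y49F6B.2, which encodes a protein with an Fcf2 pre-rRNA processing domain. The start of Y49F6B.2 was the nearer one, at 124 bp from the summit against 274 bp for *col-71*. When each summit was given only to its nearest protein-coding start, no collagen gene kept an IDR summit away from small RNA genes, beside 2.55% of all genes.

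The *col-71* gene also had 2 weaker matching summits in its introns. The first lay 383 bp downstream of the start in replicate 1 and 434 bp in replicate 2, with signals of 24.7 and 26.4 and a pooled signal of 49.6. The second lay at 1459 and 1517 bp, with signals of 29.0 and 24.6 and a pooled signal of 50.2. No other member had 3 matching pairs. Upstream on the same strand lies *col-72* (II 3520703 to 3524197), a member with collagen repeats, which had a matching intronic summit of its own, 453 bp downstream of its start in replicate 1 and 432 bp in replicate 2. Its signals were 25.03 and 17.8, and 43.4 in the pooled list, and 47.7% of the 30-base stretches in that window occurred elsewhere in the genome. Taller than either were 2 IDR summits, at 2655 and 4972 bp downstream of the *col-72* start, the first within the gene's span, with signals of 131 and 117. Both lay beside tRNA genes and outside the range.

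**Figure D3:**
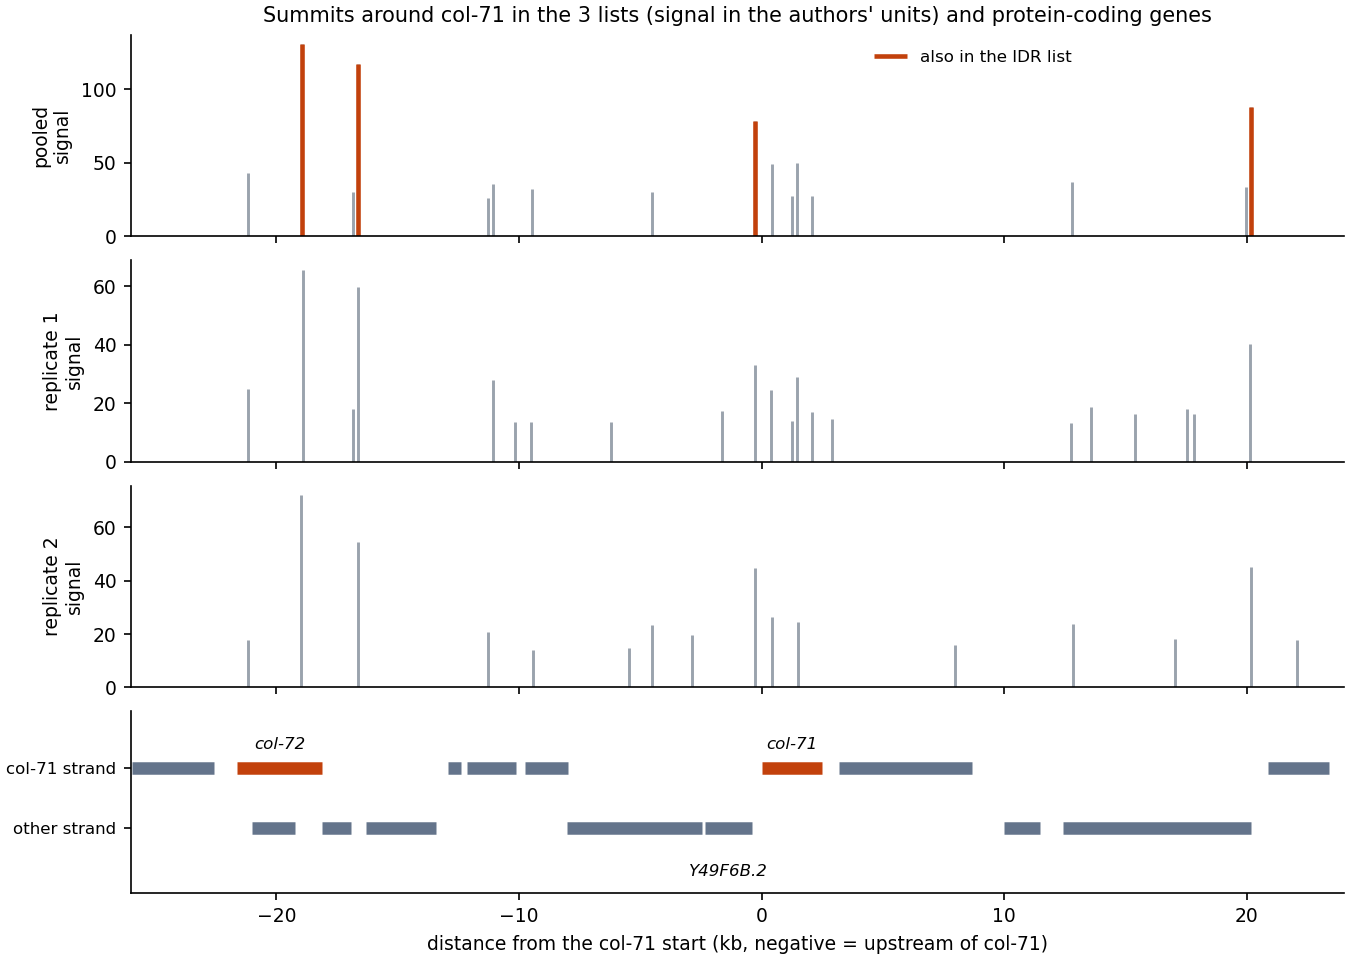
Signal (y axis, authors' units) of each summit in the pooled list and in the 2 replicate lists, against distance from the *col-71* start in kb (x axis, negative upstream of *col-71*), with protein-coding genes by strand below, collagen genes in orange. The upstream *col-71* summit, with pooled signal 78.6, and the pair in its introns, near 50, recur in both replicates, and the taller summits at −16.6 and −18.96 kb are those beside tRNA genes, with a further IDR summit of pooled signal 87.8 at 20.2 kb.

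Next to *col-71* in pooled signal came *col-38* and *col-98*. At *col-38* (II 8568035 to 8569088, minus strand), signal was 17.5 in replicate 1 and 26.9 in replicate 2, at ranks 7066 and 1737, and 47.6 in the pooled list. The summits lay 437 and 477 bp upstream, between genes, and the start of the ribosomal protein gene *rpl-5* was nearer to the pooled summit, at 362 bp. At *col-98* (III 13019008 to 13020226, plus strand), signal was 21.4 in replicate 1 and 23.9 in replicate 2, at ranks 3533 and 2756, and 46.3 in the pooled list. Those summits lay 1271 and 1265 bp upstream with *col-98* as the nearest start, and the 2 replicates ranked them closer together than those of *col-38*.

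At *col-99* (IV 137974 to 147919, minus strand), known as a transmembrane collagen with a part in axon guidance rather than a typical cuticle collagen, signal was 25.7 in replicate 1 and 15.1 in replicate 2, at ranks 1862 and 13905. The summits lay 441 and 512 bp upstream, and the pooled signal was 41.9. At *col-2* (IV 10084439 to 10085451, minus strand), signal was 24.8 and 16.8 at 400 and 475 bp upstream, and 38.9 in the pooled list, where the start of *ndc-80*, a kinetochore gene, was nearer at 214 bp. At *col-88*, signal was 21.9 and 15.01 in a coding exon of the gene, 350 and 303 bp downstream of the start, and 40.6 in the pooled list. In each of these 3 genes the replicate 1 peak ranked far higher than that of replicate 2, with ranks of 2100 and 10199 at *col-2* and 3249 and 14217 at *col-88*.

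The remaining matching summits were weak in at least one replicate. At *col-68*, signal was 12.9 in replicate 1, close to the lowest of that list, and 23.1 in replicate 2, in a coding exon 1118 and 1123 bp downstream of the start. At *col-148* and *col-125* all replicate signals were between 13.9 and 14.5. At *col-8* a pair in an intron of *lgc-38* and another in a coding exon of *rfl-1* had signals between 14.3 and 21.2. The window at *col-125* was the second most repeated of the 50 examined, with 48.3% of its 30-base stretches found elsewhere.

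Other members with the strongest pooled summits had none that matched. At *col-97*, the pooled summit (signal 39.2) lay 1515 bp upstream, and the replicate summits, of signal 18.6 and 19.3, at 1430 and 1571 bp. At *col-156*, the pooled summit (signal 36.3) lay 68 bp upstream, where replicate 1 had signal 27.1 at 67 bp and replicate 2 had 17.3 at 199 bp. At *col-121*, replicate 2 alone had a summit (signal 22.97), 133 bp upstream, with a pooled signal of 35.8 at 153 bp. At *col-111*, the pooled summit (signal 36.1) was 1838 bp upstream of the collagen gene and 295 bp from the start of *mrps-21*, a mitochondrial ribosomal protein gene.

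At *col-63* (chromosome I), the pooled signal was 35.3 at 963 bp upstream, and the replicate summits, of signal 26.5 and 24.3, were at 877 and 469 bp. A pooled summit in a coding exon of *col-9* was in range of both *col-9* and *col-44*, with signal 35.4 at 938 bp downstream of the *col-9* start and 502 bp upstream of that of *col-44*. Replicate 2 had it, with signal 24.7, and replicate 1 had none within range of *col-44*.

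**Figure D4:**
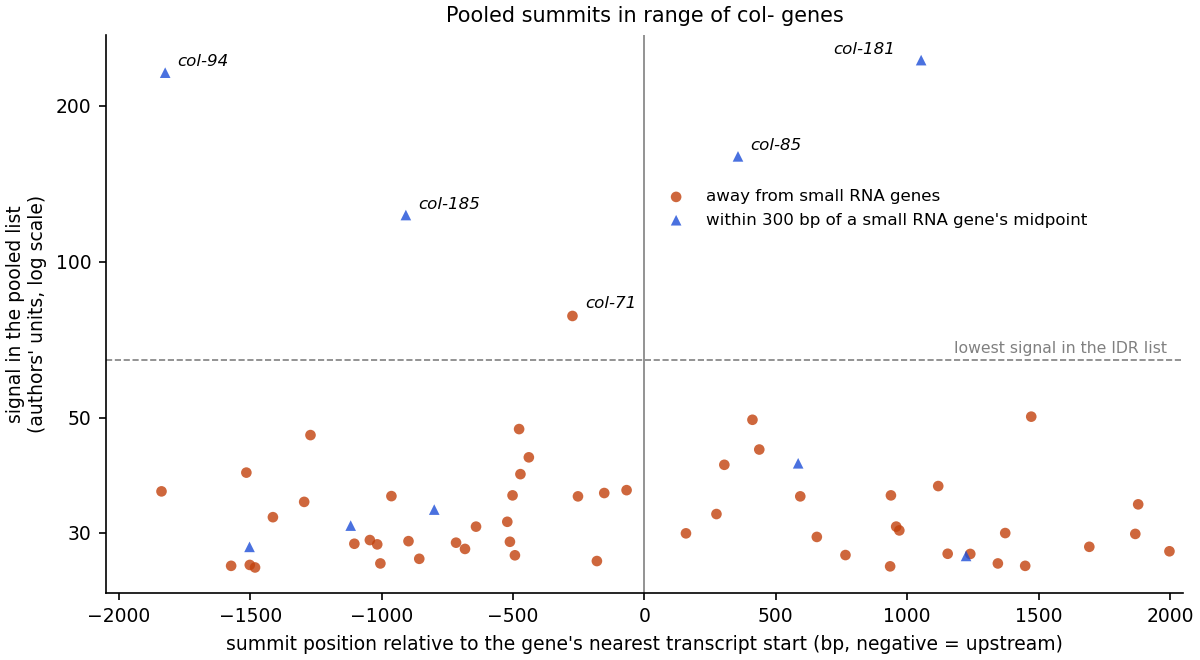
Signal of each pooled summit in range of a collagen gene (y axis, log scale, authors' units) against its distance from the gene's nearest transcript start (x axis, bp, negative upstream); triangles lie within 300 bp of a small RNA gene's midpoint, circles do not, and the dashed line is the lowest signal of the IDR list, 64.7. The 4 summits above 100 are all triangles, and *col-71* at 78.6 is the single circle above the line.

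Named by choice rather than by signal were 8 well-known collagens, *col-99* among them, too few for a share to be read. Over all genes 31.4%, and over members 39.1%, had no summit in any list. The genes *col-10*, *col-12*, *col-13* and *col-144*, all on chromosome V, *col-19*, the adult collagen widely used as a reporter of the larva to adult transition, and *col-183* had none in any of the 4 lists. At *col-120* replicate 1 alone had a summit, with signal 17.9 and rank 6612, 1586 bp upstream and in a coding exon of *flh-1*, whose start was nearer.

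Where both replicates had matching summits, their order by signal was compared as a description. Over 18 matching pairs at collagen genes, Spearman's rho between the signals was 0.769, beside 0.591 over 2750 pairs at all protein-coding genes. Over the 14 pairs away from small RNA genes it was 0.512, beside 0.544 over 2506 such pairs at all protein-coding genes. The pairs share the libraries, and summits are not replicates.

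**Figure D5:**
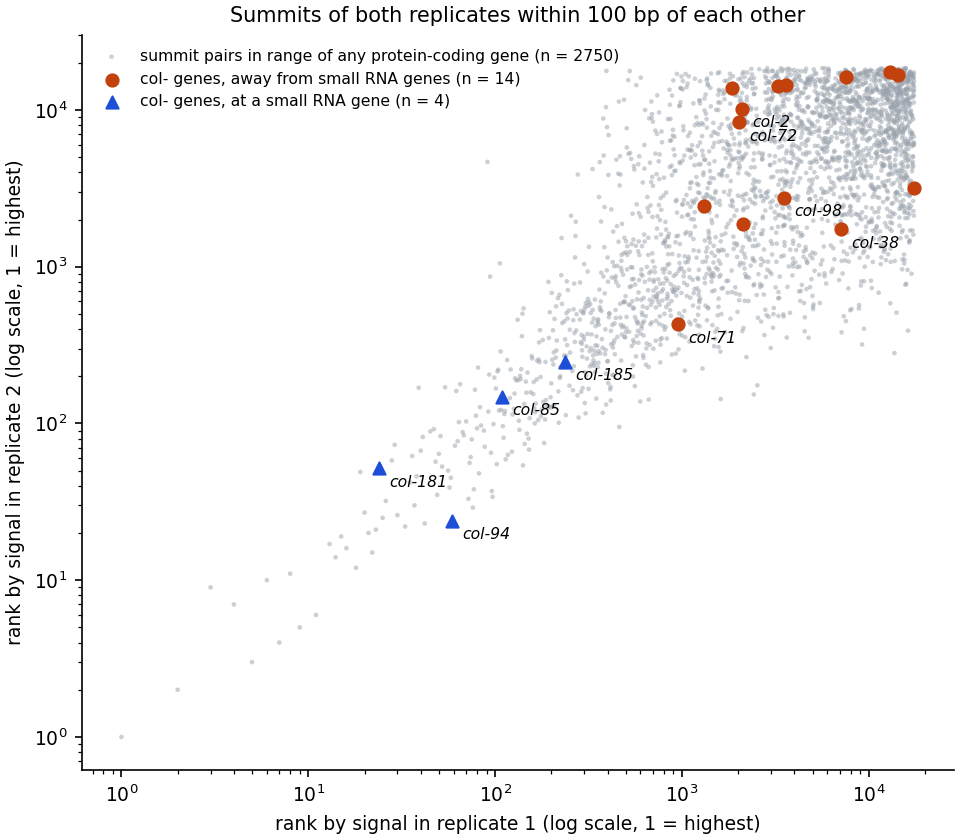
Rank by signal in replicate 1 (x axis) against replicate 2 (y axis), both on log scales with 1 the highest, of summits within 100 bp of each other: the 2750 pairs in range of any protein-coding gene (grey), the 14 collagen pairs away from small RNA genes (circles) and the 4 at small RNA genes (triangles). The triangles have ranks from 24 to 248 in both replicates, *col-71* follows at 948 and 431, and the other circles lie beyond rank 1000 in both replicates.

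Away from small RNA genes, pooled summits at collagen genes were described by signal and position. The strongest one per gene had a median signal of 31.8 over 40 members (highest 78.6), beside 34.4 over 7762 protein-coding genes (highest 838). The nearest summit was upstream in 62.5% of the 40 members and in 64.9% of all genes. It was within 500 bp of the start in 13 members, 32.5%, beside 49.6%. In the replicate lists, upstream summits made up 49.3% of members in replicate 1 and 49.2% in replicate 2, beside 60.6% and 61.3%.

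The 50 distinct pooled peaks away from small RNA genes were also placed by annotation. Of these, 22 (44%) lay between genes, 15 (30%) in coding exons, 10 (20%) in introns and 3 (6%) in untranslated or noncoding exons. Of the 8168 such peaks in range of any protein-coding gene, 44.7% lay between genes, 10.7% in coding exons and 37.8% in introns. Collagen genes were short, with a median length of 1220 bp beside 2027 bp over all genes. The median distance to the upstream neighbouring gene was 1410.5 bp beside 1156 bp. The part of gene length and spacing in the shares was not tested. In 37 of the 50 windows no 30-base stretch occurred elsewhere, and in 5, at *col-45*, *col-125*, *col-72*, *col-102* and a second site of *col-98*, over 10% did.

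The pooled share was the lower one on every chromosome. Each chromosome held only 12 to 41 members and no intervals were computed, so a single chromosome cannot be read alone. Of 27 collagen genes on X, 4 had a pooled summit away from small RNA genes, 14.8% beside 35.0% of all genes there. The shares were 38.1% beside 51.5% on chromosome I, 29.2% beside 38.3% on II, 41.7% beside 52.8% on III, 26.8% beside 35.5% on IV and 16.1% beside 29.0% on V. Matching summits away from small RNA genes were at 4 members on II, 3 each on III and IV, 1 on V and none on I or X. The share of all genes with matching summits was not counted by chromosome. The median distance from a collagen start to the nearest pooled summit away from small RNA genes was 6436 bp, beside 3316 bp for all genes. To the nearest such IDR summit it was 48908.5 bp, here shorter than the 66190 bp of all genes.

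Sequence patterns, 8 in all, were looked for on both strands in the 201 bp windows around these 50 summits. The POU class IV site ATAATTAAT, the kind of site bound by UNC-86 and its vertebrate relatives, was in none, beside 1.01% of 11965 pooled windows away from small RNA genes. The octamer ATGCAAAT, another POU site, was in none beside 1.75%. The POU subsite AATGCAT, of the kind found in the promoter of *mec-3*, was in 3 windows, 6% beside 3.10%. These were at *col-99*, *col-63* and *col-8*.

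The homeodomain core TAATTA, which is also contained in the POU class IV site, was in 3 windows, 6% beside 9.35%. The GATA site TGATAA, bound by epidermal GATA factors among others, was in 6, 12% beside 13.5%. The repeat GAGAGA was in 9, 18% beside 15.4%, and it occurred 6 times in the window at *col-2*. The E box CAGCTG was in 3, 6% beside 3.50%, and GTTCGA in 3, 6% beside 6.23%. Counts this small allow no order between collagen windows and the rest.

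The windows of the same length that end at the collagen starts, with or without a peak, were searched too. The POU class IV site was in 3 of 156, 1.92% beside 1.31% of 19973 promoters, and the octamer in 5, 3.21% beside 1.99%. The repeat GAGAGA was in 37, 23.7% beside 16.3%, and the GATA site in 37 too, 23.7% beside 22.8%. The other 4 patterns were at lower shares in the collagen windows. The *mec-3* type subsite was in 3, 1.92% beside 2.75%, and the homeodomain core in 13, 8.33% beside 11.9%. The E box was in 2, 1.28% beside 3.44%, and GTTCGA in 8, 5.13% beside 6.17%. In the windows of the 5 IDR summits, GAGAGA occurred at *col-181*, *col-85* and *col-185*, and CAGCTG at *col-181*. The 2 POU sites, the *mec-3* type subsite and the homeodomain core occurred in none of the 5.

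Genes that act with the cuticle collagens were counted in the same way, from lists taken by known role. Of 21 other cuticle collagens with dpy, sqt, rol, bli, lon or ram symbols, named for body shape or blister mutants, none had an IDR summit. Pooled summits away from small RNA genes were at 12 of them, 57.1% (36.5 to 75.5), beside 25.6% of the col- genes and 38.9% of all genes. The strongest were at *sqt-2* (signal 52.6), *bli-6* (52.5), *dpy-5* (39.3) and *dpy-17* (37.2). Matching summits away from small RNA genes were at 5 of the 21, beside 16.4% of all genes. Of the 3 basement membrane collagens, *cle-1*, the type XVIII collagen, had a matching summit (pooled signal 43.6), and *emb-9* and *let-2*, the type IV chains, had summits in replicate 2 alone.

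Of 20 genes for collagen modification and processing, none had an IDR summit and 9 had a pooled one, 45.0% (25.8 to 65.8), beside 38.9% of all genes. The strongest were at the protein disulphide isomerase genes *pdi-6* (63.5), *pdi-2* (63.1) and *pdi-1* (48.6) and at *phy-2* (37.5), a prolyl hydroxylase. The *pdi-6* and *pdi-2* summits lay 138 and 164 bp upstream, and their pooled signals were just under the lowest of the IDR list. Signals in replicates 1 and 2 were 40.4 and 33.3 at *pdi-6* and 44.4 and 27.7 at *pdi-2*. At *pdi-2* the replicate summits, at −98 and −337 bp from the start, did not match. Matching summits were at 1 of the 20, *pdi-6*, 5% beside 16.4% of all genes. Of 16 regulators of the epidermis and of moulting, 2 had an IDR summit, 12.5% (3.50 to 36.02) beside 4.68% of all genes away from small RNA genes. They were the myelin regulatory factor genes *myrf-1* and *myrf-2*, which act in moulting and neuronal rewiring.

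At *myrf-1* the summit was 197 bp upstream, with signal 48.98 in replicate 1, 33.3 in replicate 2 and 79.7 in the pooled list, rank 525. At *myrf-2* it was 179 bp upstream, with signals of 37.8, 36.6 and 77.6, rank 557. Pooled summits were at 8 of the 16, 50% (28.0 to 72.0) beside 38.9% of all genes, among them *egl-18* (44.1), a GATA factor of the seam cells, and the nuclear receptor gene *nhr-25* (41.6). Of 17 genes of the apical matrix and the cuticlins, none had an IDR summit and 5 had a pooled one away from small RNA genes, 29.4% (13.3 to 53.1) beside 38.9% of all genes, among them *cut-6* (45.9), *cut-2* (35.9) and *sym-1* (29.5). The summit at *noah-2* (29.5) was beside a small RNA gene. Matching summits away from small RNA genes were at 5 of the regulators, 31.2%, and at 1 gene of the apical matrix, 5.88%, beside 16.4% of all genes. In these lists every interval given includes the value of all genes.

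A wider range brought in a few stronger summits. With 5 kb in place of 2 kb, 13 members had an IDR summit, 8.33% beside 9.93% of all genes, and 4 of them one away from small RNA genes, 2.56% beside 7.82%. The added summits away from small RNA genes were at *col-111* (signal 156, 2722 bp upstream), *col-41* (77.9, 2756 bp downstream) and *col-83* (65.0, 2706 bp downstream). In each the nearest start was another gene's, *jmjd-1.2*, *ucr-2.2* and *cey-1*. Of the added summits beside small RNA genes, the strongest was that of *col-94*, which is also within 5 kb of *col-93*, and the next was within *col-99*, 3931 bp downstream of the start, with signal 196, beside a tRNA gene.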

How the data were processed

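The narrowPeak lists of the ce11 build were used, and each list was deposited also in ce10, which was not analysed here. The signal (column 7) and the −log10 q value (column 9) of each peak are the authors' own deposited values. Replicate lists were made by the authors from one alignment each and a control alignment, the pooled list from both replicates, and the IDR list from these, per the file headers. The pooled list is labelled as holding peaks and background for input to IDR. Which aligner and caller were used, the IDR cut-off, the read numbers and the handling of reads matching several places are not given in these sources.

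Summits (column 2 plus column 10, printed 1-based) were set against every protein-coding transcript start of Ensembl release 115, read with the ce11 sequence from RefSeq. Product names came from RefSeq. Genes were counted with 95% Wilson intervals, and no test was run, since there is 1 group of 2 replicates. The pairing of summits with genes, the direction of distances and the matching of summits were tested with summits placed at known distances from transcript starts. The small RNA classes, locations and pattern searches were not tested in this way. The sequence at the col-94 summit is not reported here. Named genes were the members with an IDR summit, the 15 with the highest pooled signal away from small RNA genes, the 10 matching summits of best lower rank, 8 well-known members (col-99 among them), and up to 4 genes of each other list. The members, gene lists, patterns and this rule were chosen with earlier results of these data known. Scripts ran in Python 3.11.15 with pandas 2.3.3 and numpy 2.4.6, figures with matplotlib 3.10.9, and intervals with SciPy 1.17.1.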

Additional observations from a re-analysis of the deposited data

How the results depend on the processing

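Genes with any IDR summit numbered 5 at 2 kb, 13 at 5 kb, 3 at 1 kb and 2 at 500 bp, and 4 or 5 with the strongest peaks of one replicate in place of the IDR list. Genes with an IDR summit away from small RNA genes numbered 1 at 2 kb and 4 at 5 kb. That count was 0 in the stronger 0.5 of the IDR list (2.2% of all genes), 0 with nearest starts alone (2.55%), and 0 or 1 with one replicate left out, the 0 being without replicate 2. Genes with a pooled summit away from small RNA genes numbered 40, and 67 at 5 kb, 13 at 500 bp and 1 at a −log10 q of at least 1. With one replicate left out, the full list of the other gave 59 to 67, the 67 without replicate 2. Matching summits away from small RNA genes were at 11 genes, and at 24 within 5 kb, 7 within 1 kb, 5 within 500 bp and 7 with nearest starts alone. In each setting away from small RNA genes the share stayed below that of all genes. The cause of these movements was not tested beyond the settings' own construction. Other small RNA radii, matching distances, gene 5′ ends and leaving out piRNA genes, the last chosen after seeing the data, moved no count by more than 1.5 times. Depth is unknown, and a weak peak may be missed. No paired analysis was possible because there is 1 group.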
